A study of Homo sapiens with 6 samples.

Results

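The cyclins, the cyclin-dependent kinases (CDKs) and the CDK inhibitors were examined in HMCB cells, a human melanoma line that the labels give as NRAS Q61K. The genes were chosen by name: cyclin symbols made of CCN, a letter and at most 1 digit, CDK symbols with a number, and the CDKN1, CDKN2 and CDKN3 symbols that end in A to D. This took 52 of the 26902 gene symbols in the table: 25 cyclins, 21 CDKs and 6 inhibitors. The libraries given an siRNA against AHCYL1 (siAHCYL1, n = 3) were compared with those given a control siRNA (siNC, n = 3), all from the same line and 3 days after transfection, per the series design. The series asks how AHCYL1, which binds the IP3 receptor calcium channels of the endoplasmic reticulum, promotes proliferation of NRAS-mutant melanoma cells. The labels call the replicates biological but name no separate cultures, so every p given here reflects only how much these libraries vary, and part of that may be technical.

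CDKs are protein kinases, most of which are active only when bound to a cyclin. In G1, D-type cyclins with CDK4 or CDK6 and then E-type cyclins with CDK2 phosphorylate the retinoblastoma protein and release E2F transcription factors, and A-type and B-type cyclins with CDK2 and CDK1 carry the cell through S phase and mitosis. INK4 inhibitors (CDKN2A to CDKN2D) bind CDK4 and CDK6, while CIP/KIP inhibitors (the CDKN1 genes) bind cyclin-CDK complexes more widely. A further set of CDKs works mainly on RNA polymerase II and the mediator complex, though CDK7 with CCNH is also the CDK-activating kinase. CDKN2A, which encodes both p16INK4a and p14ARF, is a familial melanoma gene, and CDK4 and CDK6 are drug targets in melanoma and other cancers.

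The siRNA target was low in every siAHCYL1 library. AHCYL1 averaged 11.9 ± 1.39 TPM in siAHCYL1 libraries and 138 ± 10.2 TPM in siNC libraries (SD, n = 3 each), a log2 fold change of -3.44 (SE 0.10, limma adjusted p = 5.64e-08, exact two-sided permutation p = 0.1, the smallest that 3 libraries against 3 allow). TPM is a transcript abundance that is corrected for transcript length and has the same total in all libraries, so levels of different genes can be set side by side. It does not keep the sequencing depth, which is therefore unknown, so counting error could not be given. Of the melanocytic markers, SOX10 was high (1009 TPM in siAHCYL1 and 1037 TPM in siNC on average), while TYR was listed at 0 in all libraries and MLANA stayed under 1 TPM on average in both groups. Of the 8 tested melanocytic markers 6 were called (adjusted p under 0.05), 75% against 51.6% of all tested genes, a description with no test. DCT, a melanin synthesis enzyme, fell (0.34 ± 0.25 TPM in siAHCYL1 and 11.4 ± 0.58 TPM in siNC, log2 fold change -3.23), as did MCAM (-0.36). S100B (1.35), S100A1 (0.57), TYRP1 (0.87) and PMEL (0.64) rose, though PMEL kept its call in 3 of 12 alternative fits (adjusted p from 0.0102 to 0.163). Markers of other cell types were scarce. The summed TPM of 5 immune markers was 7.67 to 11.5 in siAHCYL1 libraries and 3.60 to 4.55 in siNC libraries, mostly PTPRC, with CD3E listed at 0. The summed TPM of 5 fibroblast markers was 26.1 to 32.4 in siAHCYL1 and 15.3 to 17.9 in siNC, mostly LUM, with PDGFRA listed at 0. LUM rose (log2 fold change 0.997), while COL1A1 fell (0.49 TPM in siAHCYL1 and 2.18 TPM in siNC on average, -1.09). The sum of 6 epithelial markers was 17.5 to 17.8 in siAHCYL1 and 17.4 to 21.6 in siNC, with CDH1 and KRT5 at 0. Among them KRT8 rose (0.90) and KRT18 fell (-0.27), with calls kept in 12 of 13 and 8 of 14 alternative fits. The sum of 4 endothelial markers was 6.26 to 7.19 in siAHCYL1 and 8.81 to 11.2 in siNC, with VWF at 0. The part of such cells, or of the melanocytic markers, in the results was not tested.

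Of the 52 genes, 47 reached 1 TPM in at least 3 libraries and were tested, in a limma fit over all 13266 genes that passed this filter, and a gene was called at an adjusted p under 0.05. CCND2, CDK15 and CDK20 were listed at 0 in all 6 libraries, and CCNB3 and CCNI2 never exceeded 0.29 TPM. Of the 47, 12 rose and 8 fell after the AHCYL1 siRNA and 27 did not pass. The 20 calls were 42.6% of those tested, against 51.6% of all tested genes, with 25.5% higher and 17.0% lower in the family against 30.4% and 21.2% of all tested genes. The groups did not overlap in 22 of the 47 (46.8%), against 59.2% of all tested genes. A called change of at least 0.5 on the log2 scale was seen in 9 of the 47 (19.1%), against 29.1% of all tested genes. The median log2 fold change was 0.062 in the family and 0.063 over all tested genes. The split of calls depended on the scaling: under median-of-ratios scaling 8 rose and 11 fell, and under quantile normalization 7 rose and 12 fell. Every log2 fold change here is of TPM + 1, and the added 1 shrinks the changes of genes with low TPM. Fewer cells of a kind and less RNA per cell cannot be told apart in bulk samples.

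**Figure D1:**
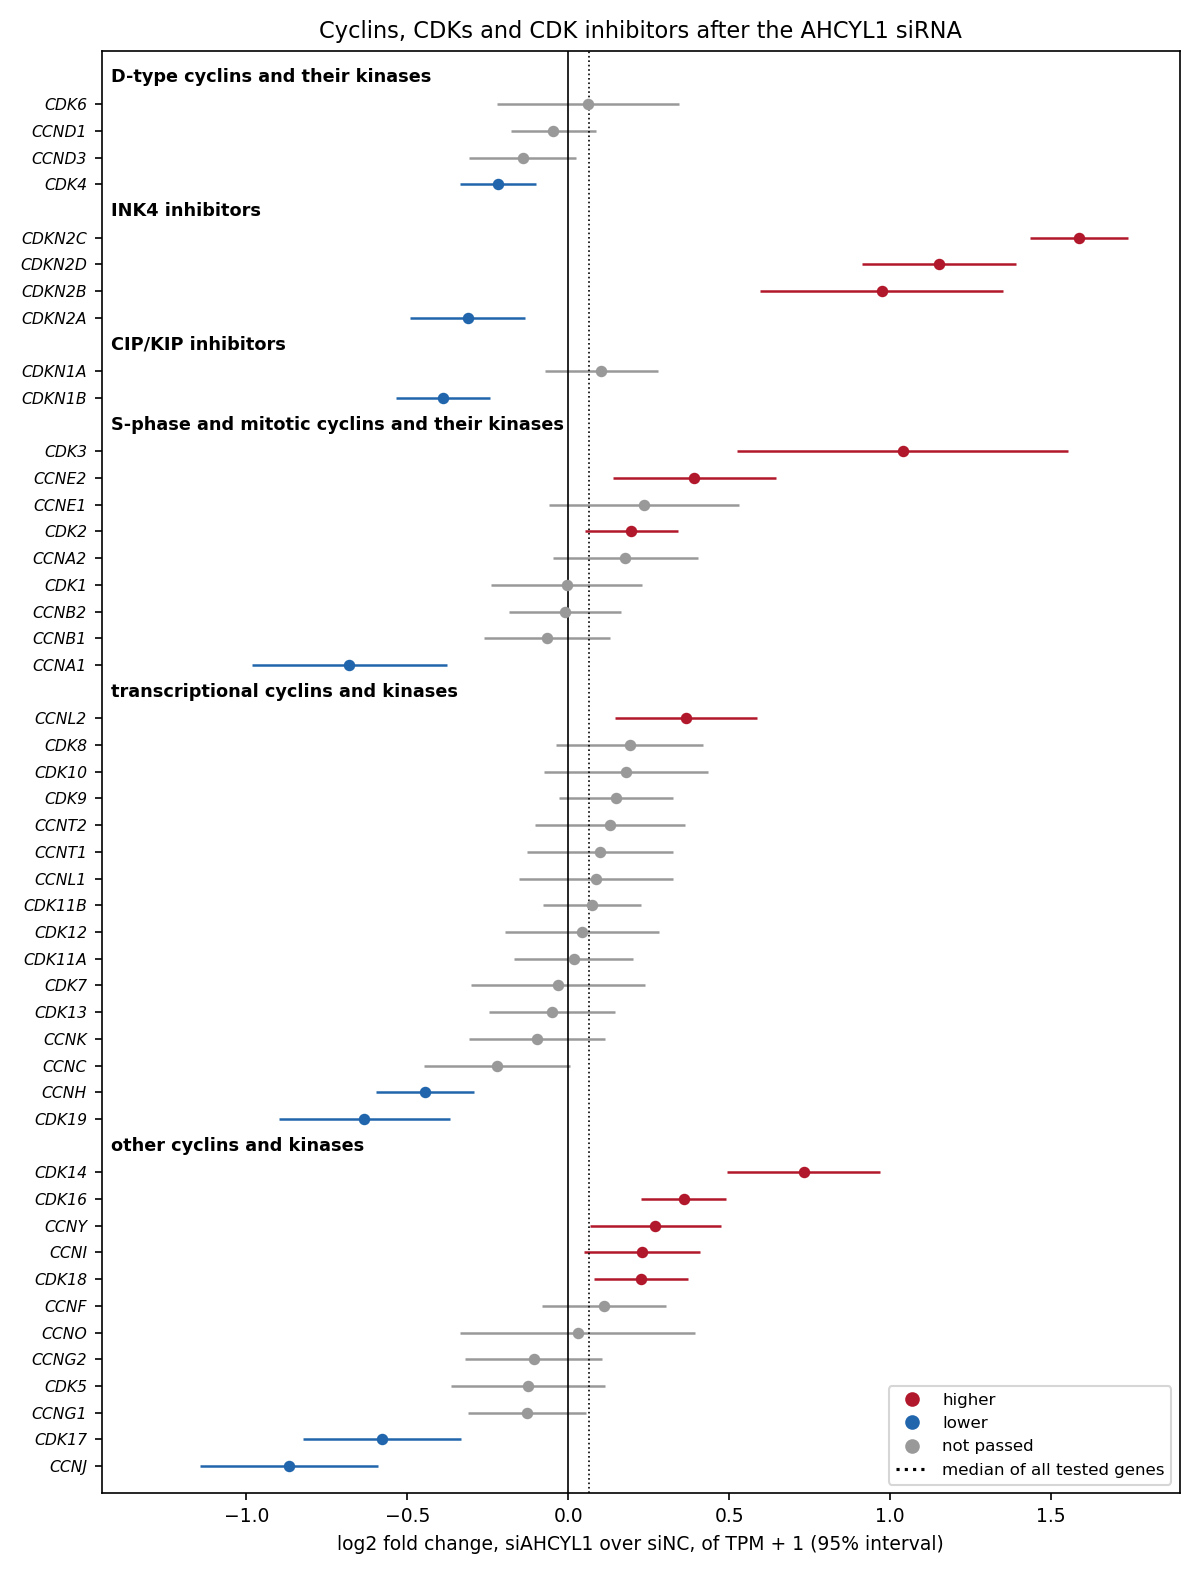
Log2 fold change of TPM + 1, siAHCYL1 over siNC, for the 47 tested cyclins, CDKs and CDK inhibitors, with 95% intervals from limma, ordered by size within each class. Red points rose and blue points fell at an adjusted p under 0.05, grey points did not pass, and the dotted line is the median over all tested genes, 0.063; CDKN2C lies farthest to the right at 1.59 and CCNJ farthest to the left at -0.87.

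The largest rise of the family was that of an INK4 inhibitor, CDKN2C. All 4 INK4 genes were called, where 51.6% of all tested genes were: CDKN2C, CDKN2D and CDKN2B rose and CDKN2A fell. The groups did not overlap for any of the 4, nor did they for 59.2% of all tested genes. CDKN2C, which encodes p18INK4c (chr1:50960745-50974633, GRCh38), had 163, 179 and 180.2 TPM in the siAHCYL1 libraries, against 59.4, 55.0 and 57.2 TPM in the siNC libraries. Every siAHCYL1 library was far above every siNC library, 174 ± 9.71 against 57.2 ± 2.22 TPM, or 3.04-fold (log2 fold change 1.59, SE 0.068, adjusted p = 5.03e-07). CDKN2D, which encodes p19INK4d (chr19:10566462-10569059), had 40.8, 44.9 and 48.2 TPM in siAHCYL1, against 18.8, 17.6 and 22.3 TPM in siNC. The groups did not overlap, and the rise was 2.28-fold (1.15, SE 0.11, adjusted p = 2.81e-05). CDKN2B, which encodes p15INK4b (chr9:22002903-22009363), had 9.86, 9.83 and 10.1 TPM in siAHCYL1, against 3.40, 4.56 and 6.07 TPM in siNC. It was the lowest of the INK4 genes in both groups, did not overlap between them, and rose 2.13-fold (0.97, SE 0.17, adjusted p = 0.00114). CDKN2A (chr9:21967753-21995301) went the other way, with 76.4, 87.5 and 74.9 TPM in siAHCYL1, against 96.3, 104.8 and 95.7 TPM in siNC. It fell to 80.5% of the siNC level without overlap (-0.31, SE 0.079, adjusted p = 0.00884), and its gene-level TPM does not separate the p16INK4a and p14ARF transcripts. These libraries do not keep strand, and 7.88% of its exon bases are shared with CDKN2B-AS1 on the other strand. All 4 calls held in each of the 14 alternative fits.

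Of the 4 genes, CDKN2C was the most abundant in siAHCYL1 and CDKN2A in siNC. CDKN2A made up 25.8 ± 1.73% of the INK4 TPM in siAHCYL1 and 54.8 ± 2.48% in siNC, and CDKN2C made up 56.5 ± 0.93% in siAHCYL1 and 31.7 ± 1.60% in siNC (SD, n = 3 each). The INK4 genes together had 290, 321 and 313 TPM in siAHCYL1, against 178, 182 and 181 TPM in siNC. CDK4 and CDK6 together, the kinases they bind, had 248, 250.3 and 250.5 TPM in siAHCYL1, against 292, 284 and 288 TPM in siNC. The ratio of INK4 to CDK4 plus CDK6 RNA was thus 1.17 to 1.28 in siAHCYL1 and 0.61 to 0.64 in siNC. These sums are descriptions of RNA, with no test. They count all CDKN2A TPM, which does not separate the p16INK4a and p14ARF transcripts. Without CDKN2A, the INK4 sum was 228 ± 13.3 TPM in siAHCYL1 and 81.4 ± 4.21 TPM in siNC (SD, n = 3 each). CDK4 shares 43.2% of its exon bases with TSPAN31 on the other strand.

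**Figure D2:**
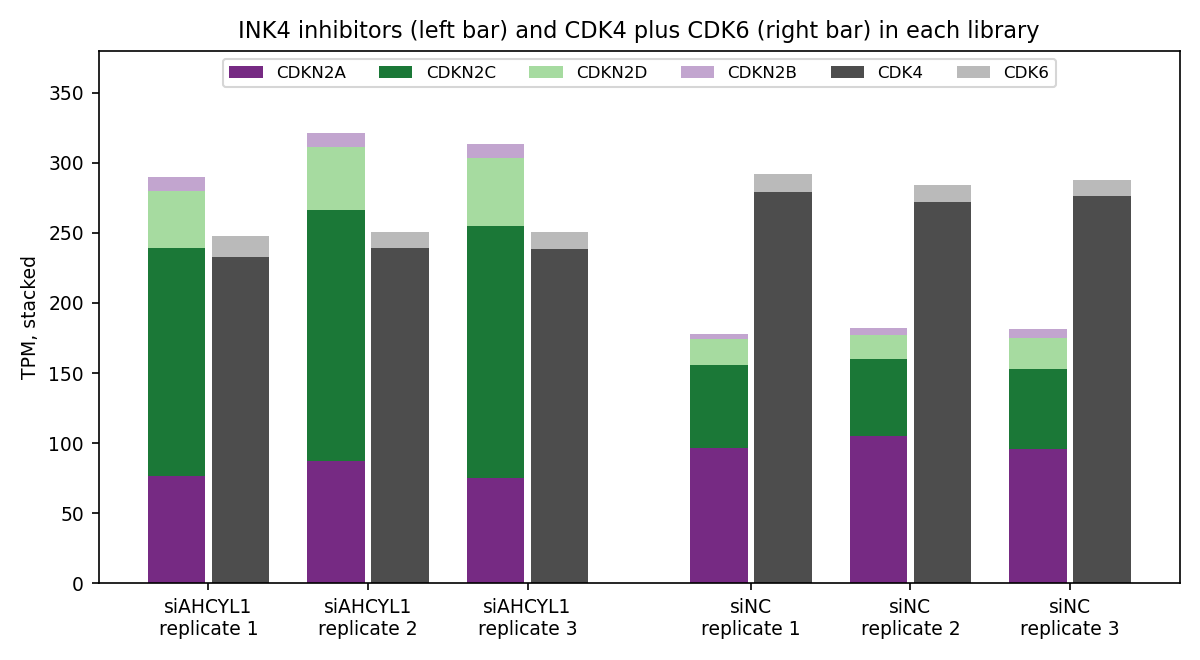
Stacked TPM of the INK4 inhibitors (left bar) and of CDK4 plus CDK6 (right bar) in each of the 6 libraries, siAHCYL1 left of siNC. The CDKN2A part does not separate p16INK4a and p14ARF transcripts. The INK4 bar is taller than the kinase bar in the 3 siAHCYL1 libraries (290 to 321 against 248 to 250.5 TPM) and shorter in the 3 siNC libraries (178 to 182 against 284 to 292 TPM).

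The windows around the RefSeq starts of the 3 INK4 genes that rose are shown because these genes moved together. A window of CDK1, whose RNA did not pass the test, is also shown, chosen because it held an E2F-type word (defined below). Each window runs from 250 bases before to 50 bases after a start (RefSeq, GRCh38.p14). Of the 52 genes, 48 had at least 1 window among the 70 searched. CCND1, CCND2, CCNE2 and CDK2 had no window among them, so whether these genes hold the words below was not tested. Capitals mark matches on either strand to an E2F-type word, which was TTTGGCGC or TTTCCCGC or TTTCGCGC or TTTGCCGC, to the cell cycle homology word TTTGAA, to CCAAT and to TGACG, the core of the cAMP response element; none of these words contains another.
CDKN2C, start 1, chr1:50960495-50960794, + strand: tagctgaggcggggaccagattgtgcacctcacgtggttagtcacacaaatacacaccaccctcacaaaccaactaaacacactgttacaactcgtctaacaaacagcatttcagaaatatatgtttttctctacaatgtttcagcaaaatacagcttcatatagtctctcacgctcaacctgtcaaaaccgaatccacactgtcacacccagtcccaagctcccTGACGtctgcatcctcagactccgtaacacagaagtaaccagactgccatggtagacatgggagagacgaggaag
CDKN2C, start 2, chr1:50968456-50968755, + strand: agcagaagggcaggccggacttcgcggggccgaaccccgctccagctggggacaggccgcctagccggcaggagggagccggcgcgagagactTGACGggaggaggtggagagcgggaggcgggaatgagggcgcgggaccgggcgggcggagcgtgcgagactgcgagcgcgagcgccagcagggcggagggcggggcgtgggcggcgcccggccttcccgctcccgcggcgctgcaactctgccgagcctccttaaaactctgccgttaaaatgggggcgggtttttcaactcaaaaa
CDKN2C, start 3, chr1:50969995-50970294, + strand: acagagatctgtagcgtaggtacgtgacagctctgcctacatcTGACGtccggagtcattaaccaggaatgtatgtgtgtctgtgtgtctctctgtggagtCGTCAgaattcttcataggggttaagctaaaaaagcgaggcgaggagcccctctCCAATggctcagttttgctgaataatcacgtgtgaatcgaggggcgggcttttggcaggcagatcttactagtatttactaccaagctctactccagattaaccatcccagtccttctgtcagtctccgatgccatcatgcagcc
CDKN2D, chr19:10568930-10569229, - strand: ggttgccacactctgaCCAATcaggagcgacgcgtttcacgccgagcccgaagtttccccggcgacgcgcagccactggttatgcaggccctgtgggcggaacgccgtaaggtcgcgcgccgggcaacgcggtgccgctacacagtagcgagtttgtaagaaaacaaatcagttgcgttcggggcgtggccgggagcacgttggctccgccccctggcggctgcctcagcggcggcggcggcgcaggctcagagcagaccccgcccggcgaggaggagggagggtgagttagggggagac
CDKN2B, chr9:22009256-22009555, - strand: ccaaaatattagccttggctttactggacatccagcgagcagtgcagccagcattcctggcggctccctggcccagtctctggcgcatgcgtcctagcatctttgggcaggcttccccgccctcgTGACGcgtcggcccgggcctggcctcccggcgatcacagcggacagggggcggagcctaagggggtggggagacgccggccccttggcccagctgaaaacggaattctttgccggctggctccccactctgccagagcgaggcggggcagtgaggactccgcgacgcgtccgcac
CDK1, chr10:60778081-60778380, + strand: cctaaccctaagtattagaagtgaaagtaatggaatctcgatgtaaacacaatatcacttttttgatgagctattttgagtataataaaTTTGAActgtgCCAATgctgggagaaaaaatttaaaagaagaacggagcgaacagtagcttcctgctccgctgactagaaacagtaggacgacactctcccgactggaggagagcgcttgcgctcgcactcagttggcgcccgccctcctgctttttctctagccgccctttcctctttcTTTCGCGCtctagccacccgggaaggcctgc
None of the 5 INK4 windows held an exact match to an E2F-type word, and none held TTTGAA. The window of CDKN2C start 2 held TTCCCGC on both strands, which is TTTCCCGC without its first letter. Shorter or inexact forms of the words were not searched. The word TGACG was in all 3 CDKN2C windows and that of CDKN2B, and CCAAT in the window of CDKN2C start 3 and that of CDKN2D. The CDK1 window held 1 E2F-type word, for which it was chosen, 1 match to TTTGAA and 1 match to CCAAT. Of the 48 genes of the family with a searched window, 5 had an E2F-type word in at least 1 window, CDK1 among them. Of all 35116 windows, 3.31% held an E2F-type word, 15.2% held TTTGAA, 34.6% held CCAAT and 24.6% held TGACG. In the same order, the shares of the 70 windows of the family were 8.57%, 10%, 38.6% and 38.6%. The matches describe these letters only.

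Of the CIP/KIP inhibitors, CDKN1B fell and CDKN1A did not pass. CDKN1B, which encodes p27KIP1 (chr12:12715058-12722371), had 107, 98.7 and 106 TPM in siAHCYL1, against 130.3, 141 and 138 TPM in siNC. The groups did not overlap, and the level fell to 76.2% of siNC (log2 fold change -0.39, SE 0.065, adjusted p = 9.23e-04). CDKN1A, which encodes the p53 target p21CIP1, had 49.8, 46.6 and 51.8 TPM in siAHCYL1, against 43.0, 46.3 and 48.5 TPM in siNC. These values overlapped (0.10, 95% interval -0.072 to 0.28, adjusted p = 0.295). There was 2.11 ± 0.05 times as much CDKN1B as CDKN1A RNA in siAHCYL1 and 2.97 ± 0.11 times as much in siNC. CDKN1C was not analysed here.

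CCND1 was the most abundant gene of the family in both groups and did not pass. It encodes cyclin D1, a target of RAS-ERK signalling, and had 848, 791 and 795 TPM in siAHCYL1, against 834, 874 and 805 TPM in siNC. The groups overlapped (log2 fold change -0.046, 95% interval -0.18 to 0.086, adjusted p = 0.537). CCND3 had 54.0, 53.03 and 49.5 TPM in siAHCYL1, against 54.3, 58.0 and 60.8 TPM in siNC. Its groups did not overlap, but by only the gap between 54.0 and 54.3 TPM, and it did not pass (-0.14, adjusted p = 0.137), though it did in 3 of 14 alternative fits, among them median-of-ratios scaling (-0.21, adjusted p = 0.0335; range over the 14 from 0.0171 to 0.349). CCND1 made up 94.0 ± 0.21% of D-type cyclin TPM in siAHCYL1 and 93.5 ± 0.49% in siNC. CDK4 had 233, 239 and 239 TPM in siAHCYL1, against 279, 272 and 276 TPM in siNC. This was a small fall without overlap, to 85.9% of siNC (-0.22, SE 0.053, adjusted p = 0.00712), with 43.2% of its exon bases shared with TSPAN31 on the other strand. CDK6 was much lower, at 15.1, 11.4 and 11.7 TPM in siAHCYL1, against 12.9, 11.8 and 11.4 TPM in siNC, and did not pass (0.062, 95% interval -0.22 to 0.34, adjusted p = 0.704).

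**Figure D3:**
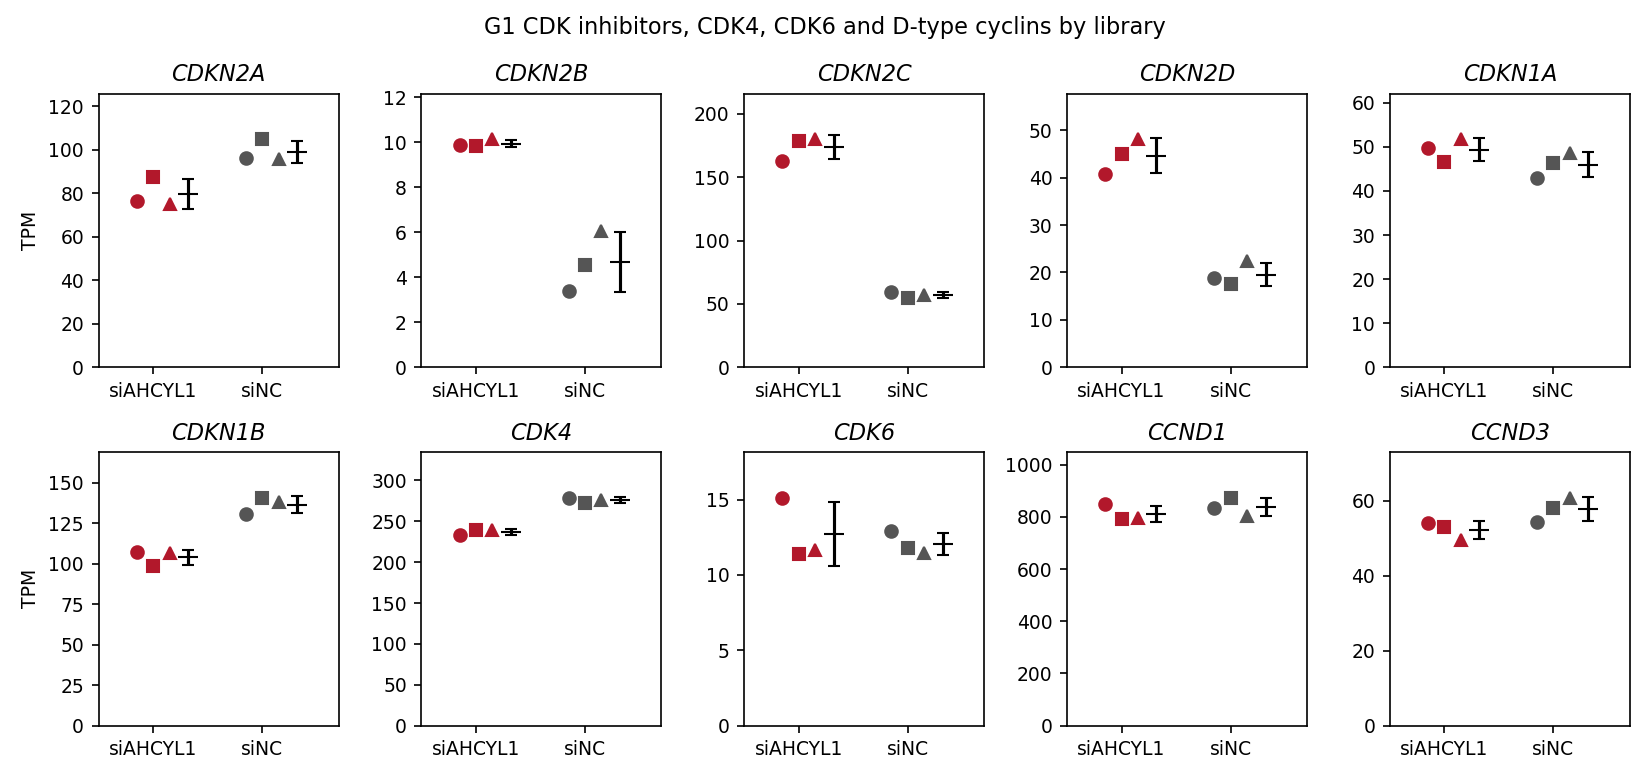
TPM of the INK4 and CIP/KIP inhibitors, CDK4, CDK6 and the expressed D-type cyclins in each library, siAHCYL1 (red) left of siNC (grey), with a circle, square and triangle for replicates 1, 2 and 3 and a black mark for the mean and SD. All y axes start at 0 and differ in scale; CDKN2B, CDKN2C and CDKN2D are above the siNC range in every siAHCYL1 library, and CDKN2A, CDKN1B and CDK4 are below it.

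The next class held the E-type, A-type and B-type cyclins with CDK1, CDK2 and CDK3. Of its 9 tested genes, 3 rose (CCNE2, CDK2 and CDK3), 1 fell and 5 did not pass. Thus 44.4% were called against 51.6% of all tested genes. CCNE2, which encodes cyclin E2, had 71.6, 60.7 and 63.1 TPM in siAHCYL1, against 58.6, 46.2 and 44.2 TPM in siNC. The lowest siAHCYL1 library was just above the highest siNC library (log2 fold change 0.39, SE 0.11, adjusted p = 0.0162), and the call was lost without siNC replicate 2 (adjusted p = 0.0643) or 3 (adjusted p = 0.0533; range over all 14 alternative fits from 9.50e-04 to 0.0643). With INTS8, on the other strand, it shares 37.0% of its exon bases. The other E-type cyclin, CCNE1, had 20.6, 22.1 and 17.5 TPM in siAHCYL1, against 20.0, 16.2 and 14.6 TPM in siNC, overlapped and did not pass (0.24, adjusted p = 0.159), except without siNC replicate 1 (0.35, adjusted p = 0.0413). Their kinase CDK2 had 95.3, 87.3 and 94.4 TPM in siAHCYL1, against 80.3, 79.2 and 81.8 TPM in siNC. It was slightly higher without overlap, 1.148-fold (0.20, SE 0.064, adjusted p = 0.0294), and lost its call in 9 of 14 alternative fits, among them both other scalings (adjusted p = 0.113 and 0.237) and the removal of any library but siAHCYL1 replicate 2 (adjusted p from 0.0544 to 0.102; range over the 14 from 0.0096 to 0.237). CDK3 had 6.28, 10.6 and 5.26 TPM in siAHCYL1, against 3.32, 2.26 and 3.31 TPM in siNC, 2.48-fold and without overlap (1.04, SE 0.23, adjusted p = 0.00437). Its value is uncertain, since 91.2% of its exon bases belong also to the read-through gene TEN1-CDK3 on the same strand, which had 1.69, 2.47 and 5.15 TPM in siAHCYL1, against 0.70, 1.60 and 1.03 TPM in siNC. With a pseudocount of 0.1 in place of 1 the log2 fold change of CDK3 was 1.24, against 1.19 for CDKN2D.

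CDK1 and the B-type cyclins, which drive mitosis, did not pass. CDK1 had 139, 112 and 116 TPM in siAHCYL1, against 136, 109 and 122.5 TPM in siNC (log2 fold change -0.0052, 95% interval -0.24 to 0.23, adjusted p = 0.970). CCNB1, which encodes cyclin B1, had 177, 160.3 and 153 TPM in siAHCYL1, against 192, 163 and 159 TPM in siNC (-0.065, 95% interval -0.26 to 0.13, adjusted p = 0.559). For CCNB2 the log2 fold change was -0.0098 (adjusted p = 0.925). CCNA2, which encodes the cyclin A of dividing somatic cells, had 132, 116 and 118 TPM in siAHCYL1, against 124, 106 and 94.4 TPM in siNC, overlapped and did not pass (0.18, adjusted p = 0.168), though it passed in 3 of 14 alternative fits, among them that without siNC replicate 1 (0.28, adjusted p = 0.0249; range over the 14 from 0.0249 to 0.532). Its relative CCNA1, known mainly from the testis, had 15.6, 11.2 and 14.9 TPM in siAHCYL1, against 25.1, 22.7 and 20.4 TPM in siNC. It fell to 61.1% of siNC without overlap (-0.68, SE 0.13, adjusted p = 0.00246).

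Among 16 transcriptional cyclins and kinases, 1 rose, 2 fell and 13 did not pass, 18.8% called against 51.6% of all tested genes, a description with no test. CDK19 and CDK8 are alternative kinases of the mediator kinase module. CDK19 had 18.2, 14.5 and 13.4 TPM in siAHCYL1, against 25.9, 23.7 and 23.1 TPM in siNC. It fell to 63.4% of siNC without overlap (log2 fold change -0.63, SE 0.12, adjusted p = 0.00178). CDK8 had 25.9, 27.4 and 23.2 TPM in siAHCYL1, against 23.5, 23.3 and 19.8 TPM in siNC, overlapped and did not pass (0.19, adjusted p = 0.143). CDK19 made up 37.5 ± 3.41% of the TPM of the pair in siAHCYL1 and 52.2 ± 1.73% in siNC. Their cyclin, CCNC, did not pass (-0.22, adjusted p = 0.0934), and did in 6 of 14 alternative fits, among them both other scalings (adjusted p = 0.0190 and 0.0121) and those without siNC replicate 3 (adjusted p = 0.0364) or siAHCYL1 replicate 1 (adjusted p = 0.0378; range over the 14 from 0.0117 to 0.279). CCNH, the cyclin of the CDK-activating kinase with CDK7, had 37.4, 36.3 and 35.9 TPM in siAHCYL1, against 51.1, 49.2 and 49.97 TPM in siNC. The groups did not overlap and the level fell to 72.9% of siNC, with 12.7% of its exon bases shared with RASA1 on the other strand (-0.45, SE 0.068, adjusted p = 5.58e-04), while CDK7 did not pass (-0.031, adjusted p = 0.848). CCNL2, a cyclin of CDK11 linked to splicing, rose (0.37, SE 0.10, adjusted p = 0.0119), a call lost under median-of-ratios scaling (0.30, adjusted p = 0.0583) and quantile normalization (0.27, adjusted p = 0.0813; range over 14 fits from 0.00191 to 0.0813). CDK9 with CCNT1 and CCNT2, which release paused polymerase, and CDK12, CDK13 and CCNK, which act in elongation, did not pass (log2 fold changes from -0.10 to 0.15). CCNK shares 59.5% of its exon bases with CCDC85C on the other strand. CDK11A and CDK11B are near-identical copies, so their separate values are uncertain, and neither passed.

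Of 12 other cyclins and kinases, 5 rose, 2 fell and 5 did not pass, so that 58.3% were called against 51.6% of all tested genes. CCNJ, a little-studied cyclin, had the largest fall of the family, with 13.4, 12.6 and 10.98 TPM in siAHCYL1, against 26.2, 24.0 and 19.9 TPM in siNC. All siAHCYL1 libraries lay below all siNC libraries, at 52.7% of the siNC level (log2 fold change -0.87, SE 0.12, adjusted p = 3.48e-04). The related kinases CDK14 to CDK18 went different ways. CDK14, which with cyclin Y phosphorylates the Wnt co-receptor LRP6, had 22.6, 21.6 and 18.4 TPM in siAHCYL1, against 12.6, 12.5 and 11.3 TPM in siNC. It rose 1.72-fold without overlap (0.73, SE 0.11, adjusted p = 3.92e-04). CCNY, which encodes cyclin Y, had 21.7, 19.1 and 19.7 TPM in siAHCYL1, against 16.6, 17.0 and 15.9 TPM in siNC (0.27, SE 0.090, adjusted p = 0.0306), a call lost in 8 of 14 alternative fits, among them leaving out any 1 library (adjusted p over the 14 from 0.0236 to 0.0879). CDK16, another partner of cyclin Y, had 165, 158 and 160.3 TPM in siAHCYL1, against 130.2, 124 and 122 TPM in siNC. It rose 1.28-fold without overlap (0.36, SE 0.059, adjusted p = 8.42e-04). CDK17, by contrast, had 19.9, 19.6 and 17.0 TPM in siAHCYL1, against 32.2, 28.5 and 25.3 TPM in siNC. It fell to 65.7% of siNC without overlap (-0.58, SE 0.11, adjusted p = 0.00192). CDK18 (0.23, adjusted p = 0.0155) and CCNI (0.23, adjusted p = 0.0376) rose by less, and both calls were lost under either other scaling (adjusted p from 0.0518 to 0.0992), with that of CDK18 lost also without siNC replicate 3 (adjusted p = 0.0510) or siAHCYL1 replicate 2 (adjusted p = 0.0640), and that of CCNI also without siNC replicate 2 or 3 or siAHCYL1 replicate 1 or 2 (adjusted p from 0.0650 to 0.121). Adjusted p over the 14 alternative fits ran from 0.00649 to 0.0992 for CDK18 and from 0.00158 to 0.121 for CCNI.

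Genes that regulate CDKs by other means were tested as well, in lists drawn up from general knowledge but with earlier results of these data known. Of 8 CDK phosphatases, inhibitory kinases and CKS subunits, 5 rose and 2 fell, 87.5% called against 51.6% of all tested genes (30.4% higher, 21.2% lower), with a median log2 fold change of 0.30 against 0.063 over all tested genes. PKMYT1, a kinase that inhibits CDK1, rose (63.5 TPM in siAHCYL1 and 39.5 TPM in siNC on average, 0.67), as did the phosphatase CDC25B (0.31), CDKN3, a phosphatase that acts on CDK2 (0.66), and CDC25A (0.33). CKS2, a small CDK-binding protein, fell (244 TPM in siAHCYL1 and 364 TPM in siNC, -0.58), as did CDC25C (-0.42). The call of CDC25A was lost without siNC replicate 3 (adjusted p = 0.0508), and that of CDC25C without siNC replicate 2 or siAHCYL1 replicate 2 (adjusted p up to 0.0557). Another list held 10 genes of the retinoblastoma family, DREAM and related activating complexes, which repress cell cycle genes or switch them on. Of these 10, 4 rose and 0 fell, 40% called (median 0.23). The pocket proteins RBL1, or p107 (28.9 TPM in siAHCYL1 and 13.6 TPM in siNC, 1.04), and RBL2, or p130 (52.0 TPM in siAHCYL1 and 28.1 TPM in siNC, 0.86), rose with RBBP4 (0.42) and MYBL2 (0.42), while RB1 did not pass (0.25, adjusted p = 0.0811), though it did in 3 of 14 alternative fits, the replicate block and those without siNC replicate 1 or without both replicates 1 (range over the 14 from 0.00417 to 0.239).

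The next list held 19 subunits, conjugating enzymes and regulators of ubiquitin ligases that target cyclins or CDK inhibitors. Of these, 5 rose and 4 fell, 47.4% called against 51.6% of all tested genes (median 0.046). SKP2, which marks the p27KIP1 protein for destruction, rose (61.3 TPM in siAHCYL1 and 38.8 TPM in siNC, 0.65), as did FBXO5, an inhibitor of the anaphase-promoting complex (0.55), DTL (0.53) and ANAPC11 (0.38). CDC16 (-0.37), UBE2S (-0.28), CDC20 (-0.24) and CUL4A (-0.24) fell, the call of CUL4A being lost in 4 of 14 alternative fits, among them those without siNC replicate 1 or siAHCYL1 replicate 2 or 3 (adjusted p up to 0.0864). Of 13 partners of the transcriptional CDKs, 2 rose and 5 fell, 53.8% called (median 0.025). MED12L, a subunit of the mediator kinase module, fell (1.06 TPM in siAHCYL1 and 4.32 TPM in siNC, -1.37), as did AFF4, a scaffold of the super elongation complex that holds CDK9 (34.7 TPM in siAHCYL1 and 62.4 TPM in siNC, -0.84), and MED13L (-0.33), while MLLT1 (0.50) and LARP7 (0.44) rose. The call of MED13L was lost without siNC replicate 1 or 2 or siAHCYL1 replicate 2 or 3 (adjusted p up to 0.0892). LARP7 overlapped between the groups and lost its call in 7 of 14 alternative fits, among them quantile normalization and those without siNC replicate 2 or 3 or siAHCYL1 replicate 1 or 2 (adjusted p up to 0.0943). Of 12 tested CDK5 activators and other partners, 5 rose and 3 fell, 66.7% called (median 0.049). CDK5 itself did not pass (-0.12, adjusted p = 0.355), except without siNC replicate 1 (-0.24, adjusted p = 0.0393) or with both replicates 1 left out (-0.19, adjusted p = 0.0366), and its activator CDK5R1 fell (5.55 TPM in siAHCYL1 and 10.8 TPM in siNC, -0.85). CDK5RAP1 (-0.32) and CABLES1 (-0.44) fell too, CABLES1 with its call lost in 6 of 13 alternative fits, among them the removal of any library but siAHCYL1 replicate 1 (adjusted p up to 0.163), and CDK5RAP3 (0.84), CABLES2 (0.90), CNPPD1 (0.66) and CDK5RAP2 (0.57) rose. Of 19 tested p53 target genes, 5 rose and 5 fell, 52.6% called against 51.6% of all tested genes (median -0.042), with XPC (0.82), BTG2 (1.02), TNFRSF10B (0.21) and DDB2 (0.38) up and PHLDA3 (-0.94), PLK2 (-1.46), TP53INP1 (-0.74) and PLK3 (-0.60) down. TNFRSF10B lost its call under both other scalings and without siNC replicate 2 or siAHCYL1 replicate 2 (adjusted p up to 0.0990), and DDB2 under quantile normalization and without siNC replicate 3 or siAHCYL1 replicate 2 (adjusted p up to 0.0891). Adjusted p was under 0.05 for each rise or fall named here, and these lists were not tested as sets.

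**Figure D4:**
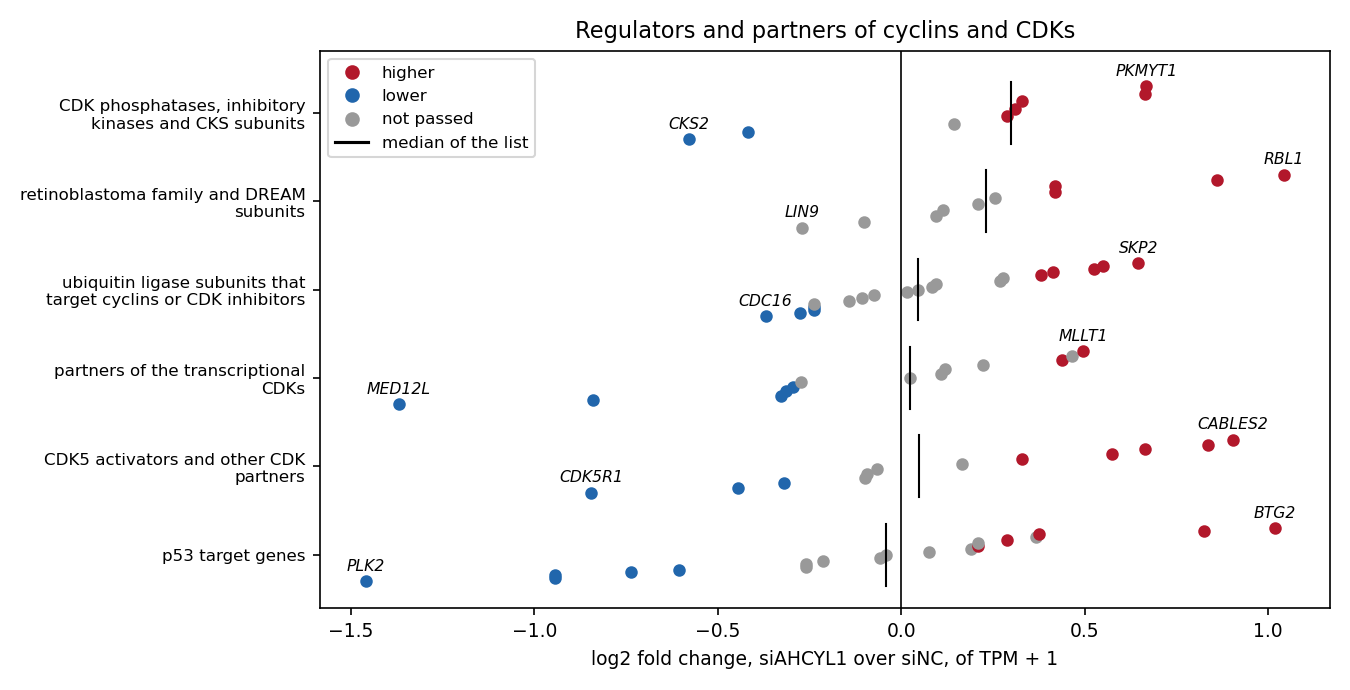
Log2 fold change of TPM + 1, siAHCYL1 over siNC, for each tested gene of 6 lists of CDK regulators, partners and p53 targets. Red points rose and blue points fell at an adjusted p under 0.05, grey points did not pass, the black bar is the list's median, and the lowest and highest gene of each list are named, from MED12L at -1.37 to RBL1 at 1.04 and with PLK2 lowest at -1.46.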

How the data were processed

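RNA from 6 HMCB libraries (3 siAHCYL1, 3 siNC) was sequenced on Illumina machines from a library type that does not keep strand, per the labels' protocols. The authors deposited a single table of TPM, for which STAR, RSEM and GRCh38 are named per the submitters' processing notes; versions and the annotation were not given in the sources used here. Each library has the same total, so depth and the precision it gives are unknown. The si columns were taken as siAHCYL1, the only group besides the nc columns. From these values, log2(TPM + 1) of the 13266 genes that reached 1 TPM in 3 or more libraries entered limma 3.58.1 (R 4.3.3; group as the only term, trended moderation, two-sided p, Benjamini-Hochberg over all genes, called at 0.05), and AHCYL1 also an exact permutation test in scipy 1.17.1. The procedure was tested on simulated data. The family, its classes and the lists were chosen with earlier results of these data known. Values per library are given for members called with a log2 fold change of at least 0.5 and for a set of G1, S-phase and mitotic genes whatever their result, with some further members beside their partners; list genes named are up to 4 called in each direction by adjusted p, and a few that this would name are left out. The 14 alternatives changed the pseudocount (0.1), the filter (none, or 5 TPM), the scaling (median-of-ratios or quantile), the model (a replicate block, or robust moderation without a trend) or the libraries (each left out, or replicate 1 of both groups). Gene positions and 3′ UTRs are from GENCODE 29.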

Additional observations from a re-analysis of the deposited data

How the results depend on the processing

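In the family 20 of 47 tested genes were called, 18 to 23 in the alternatives that kept every library, 22 without replicate 1 of both groups and 16 to 21 when a single library was dropped. Over all genes 6844 were called, with 6055 to 7919, 6801 and 5566 to 6725 in the same fits. AHCYL1 passed in all 14 alternatives (log2 fold change from -3.54 to -3.38; a single library dropped, from -3.53 to -3.38). Of the 20 calls, 14 held in all 14 alternatives, and CCNE2, CCNI, CCNL2, CCNY, CDK18 and CDK2 were lost in at least 1, with no change of direction. Of the 27 genes that did not pass, 8 passed in at least 1 (CCNA2, CCNC, CCND3, CCNE1, CCNG1, CCNG2, CDK5 and CDK8). Fold changes shifted by a median of -0.088 with quantile normalization and -0.066 with median-of-ratios scaling, and the share of called genes that were higher, 58.9%, became 48.1% and 50.2% with them. Of 658 refits of single genes 29 changed sign, none past the threshold, and the cause was not tested. With median-of-ratios scaling these were CCNO (-0.035), CDK11A (-0.051), CDK12 (-0.023) and CDK6 (-0.0022). With quantile normalization they were CCNL1 (-0.015), CCNO (-0.071), CDK11A (-0.089), CDK11B (-0.035), CDK12 (-0.037), CDK6 (-0.028) and CDKN1A (-0.0046). Without replicate 1 of both groups they were CDK12 (-0.0099) and CDK6 (-0.014). When a single library was dropped, they came from genes with ranges of -0.12 to 0.018 for CCNB1, -0.050 to 0.059 for CCNB2, -0.0097 to 0.17 for CCNL1, -0.12 to 0.17 for CCNO, -0.10 to 0.074 for CDK1, -0.035 to 0.074 for CDK11A, -0.051 to 0.10 for CDK12, -0.060 to 0.13 for CDK6 and -0.14 to 0.081 for CDK7. Pairing of the replicate numbers was not established, since deviations from the group mean correlated at 0.233, 0.00092 and 0.154 for replicates 1, 2 and 3. The replicate block called 23 genes of the family, the same 20 and CCNA2, CCNC and CDK8 (adjusted p = 0.0293, 0.0117 and 0.0463), and 7919 over all genes. The limits that depth sets are not known from TPM.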

Other observations

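Replicate 1 tended to hold the highest values of the family in both groups. It was the highest siAHCYL1 library in 30 of the 47 tested genes and the highest siNC library in 30, and the highest of both groups in 24. Over all tested genes replicate 1 was highest in 58.0% in siAHCYL1 and 44.9% in siNC, and in both in 33.5%. CCNB1, CCNA2, CDK1 and CCNE2 were each highest in replicate 1 of both groups. CDKN2C, CDKN2D and CDKN2B were highest in replicate 3 of siAHCYL1. In siNC, CDKN2C was highest in replicate 1, and CDKN2D and CDKN2B in replicate 3.

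Library strand is not kept, so exons shared with a gene on the other strand cannot be told apart. The largest such share among the tested genes was that of CCNK, with 59.5% of its exon bases in CCDC85C, and neither gene passed (16.9 TPM in siAHCYL1 and 18.4 TPM in siNC for CCDC85C, log2 fold change -0.11, adjusted p = 0.365). CDK4 shares 43.2% of its exon bases with TSPAN31, which rose (31.2 TPM in siAHCYL1 and 19.2 TPM in siNC, log2 fold change 0.67) while CDK4 fell. CCNE2 shares 37.0% with INTS8, which fell (-0.26) while CCNE2 rose. CDKN2A shares 7.88% with CDKN2B-AS1, which stayed under 1 TPM on average in both groups. MTAP, the neighbour of the CDKN2A and CDKN2B genes, did not pass (64.4 TPM in siAHCYL1 and 69.0 TPM in siNC, -0.095, adjusted p = 0.412). Reads per exon were not used here, and the part of the overlap was not tested.

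Some genes named after cyclins or CDKs lie outside the rule, and those that follow were picked after their values were seen. CDKN2AIPNL, named for its likeness to a CDKN2A-interacting protein, fell (26.9 ± 5.24 TPM in siAHCYL1 and 69.7 ± 2.07 TPM in siNC, log2 fold change -1.36, adjusted p = 2.52e-05). CCNDBP1, which binds cyclin D1, rose (27.8 ± 0.33 TPM in siAHCYL1 and 18.3 ± 0.43 TPM in siNC, 0.58, adjusted p = 2.76e-04). FAM58A, the older symbol of CCNQ, the cyclin of CDK10, rose (48.6 ± 7.84 TPM in siAHCYL1 and 36.5 ± 1.68 TPM in siNC, 0.39, adjusted p = 0.0179), a call lost in 4 of 14 alternative fits, those without siNC replicate 3, siAHCYL1 replicate 1 or 3, or both replicates 1 (adjusted p up to 0.0601). CCNYL1, a relative of cyclin Y, rose with CCNY (0.33, adjusted p = 0.00707).

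An earlier look at these data had linked the word GTATGCA in 3′ UTRs with lower, and TCGGAGA with higher, fold changes, so these words were looked up in the family as a description and not as independent support. In the longest GENCODE 29 3′ UTR per gene (GRCh38), GTATGCA was in 6 of 47 tested genes (12.8%) and in 8.75% of the 11960 tested genes searched. Of these 6, CCNJ and CDK19 fell, CDKN2B rose, and CCNB2, CCNG2 and CDK6 did not pass. Of all 1047 carriers 38.4% fell, against 21.2% of all 13266 tested genes, searched or not. TCGGAGA was in 1 of the 47, CDK14, which rose. Of all 262 carriers 46.2% rose, against 30.4% of all 13266 tested genes, searched or not. CDKN2C and CDKN2D carried neither word. The word TATGCAA, which shares the letters TATGCA with GTATGCA, was searched in the same way. The 2 searches are not separate, and in CCNB2 and CCNG2 the same stretch counts under both words. TATGCAA was in 8 of the 47 (17.0%) and in 13.0% of all genes searched. Of these 8, CDK19 and CDKN1B fell and 6 did not pass, and of all 1555 carriers 30.9% fell. The sites of the 4 called carriers of GTATGCA or TCGGAGA are shown with the word in capitals and its position.
CCNJ, chr10:96059757-96059763, + strand: gatgttgtggGTATGCAgcaggagtct
CDK19, chr6:110613366-110613372, - strand: tatgtattatGTATGCAtaattttgct
CDKN2B, chr9:22004127-22004133, - strand: tctgtaccagGTATGCAttaaaatata
CDK14, chr7:91209262-91209268, + strand: ggcagcttctTCGGAGAagtgaaatat
Whether these words have a part in the changes was not tested.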
